A study of Mus musculus with 12 samples.

Results

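The E2A-HLF culture is compared here with the MLL-AF9 culture, both carrying the mutant form of PRDM16. Its members are 4 of the 12 libraries of the series, taken by their labels: 2 of E2A-HLF+PRDM16mut and 2 of MLL-AF9+PRDM16mut. In both groups lineage-negative (Lin-) bone marrow cells of C57BL/6 mice received a fusion oncogene and PRDM16mut at the same time. They grew in IMDM with 15% FBS and 10 ng/ml of each of IL3, IL6 and SCF, and RNA was taken after 10 days of selection with G418 and puromycin. Libraries were made from oligo(dT)-primed RNA with the TruSeq v2 kit. The change that PRDM16mut carries is not given in the labels, and each group of the series holds a form of PRDM16, so no library shows either fusion alone. Whether the 2 libraries of a group came from separate cultures is not stated, so the spread between them may be technical.

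E2A-HLF joins the activation domains of the E protein E2A (gene Tcf3) to the DNA-binding bZIP domain of HLF, a factor of the PAR bZIP family, and is found in a rare B-cell precursor leukaemia. MLL-AF9 joins the chromatin regulator MLL (here Mll1) to AF9 (Mllt3), a part of the transcription elongation machinery, and is found mainly in myeloid leukaemia, where Hoxa genes and Meis1 are its best known targets. PRDM16 is a zinc finger transcription regulator that carries a PR domain and is known in blood for its role in stem cells.

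The 2 groups come from separate runs of the authors' quantification, in separate tables, so the fusion and the run cannot be told apart. For this reason no test was made between them. The values are FPKM (fragments per kilobase of transcript, relative to all mapped fragments), and the difference is the mean of E2A-HLF minus the mean of MLL-AF9 on quantile-normalized log2(FPKM + 1), where 1 unit is 2-fold and changes of weakly expressed genes are understated. A gene is called higher or lower when every library of one culture lies at least 1 unit from every library of the other. As a side reference, 2 libraries of MLL-AF9 stable+PRDM16mut are given: cells from bone marrow that carried MLL-AF9 before they received PRDM16mut and had 10 days of puromycin. They come from a separate table again, which lists the same gene symbols as the E2A-HLF table. Against them the same 2 E2A-HLF libraries are used, so this second set of differences is not independent of the first.

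Compared were the 10737 genes that reached an FPKM of 1 in 2 or more of the 4 libraries. Of these, 956 were higher with E2A-HLF, which is 8.9%, and 970 were lower, which is 9.03%. Together that is 17.9% of the genes. The median difference of all genes was 0.077. Total depth is unknown, since FPKM hold no counts. The FPKM of the 4 libraries summed to between 578179 and 631064, of which the 10 most abundant genes held 6.92% and 7.16% with E2A-HLF and 12.9% and 12.8% with MLL-AF9. Replicates lay close together: the median gene differed by 0.0565 between the E2A-HLF libraries and by 0.0392 between the MLL-AF9 libraries. The libraries of the cultures did not overlap for 91.2% of the genes, so absence of overlap alone says little about a single gene here. The 2 MLL-AF9 cultures, which share the fusion, also differed from each other in 1018 of 10399 genes by the same rule, which is 9.79%. These too differ in run as well as in how the cells were made. Against the stable cells, 991 genes were higher with E2A-HLF (9.23%) and 905 were lower (8.43%). The large differences were mostly on the lower side: 104 genes were lower by at least 16-fold in every library pair and 22 were higher by that much, and at 64-fold the counts were 32 and 2. In the plot of mean levels the genes of the largest lower differences lie far along the MLL-AF9 axis. A gene under 1 FPKM in both libraries of one culture passed the filter through the other and could differ in 1 direction only. Such members are counted beside many of the lists below.

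**Figure D1:**
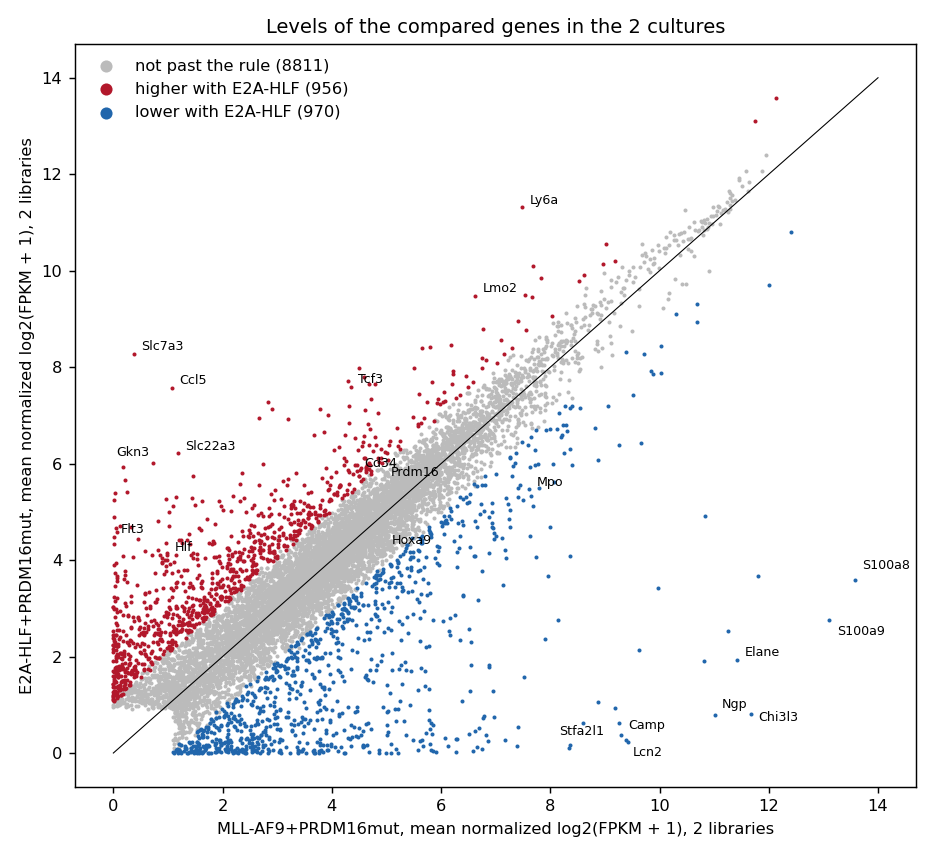
Mean normalized log2(FPKM + 1) of each of the 10737 compared genes with MLL-AF9+PRDM16mut (horizontal) and E2A-HLF+PRDM16mut (vertical), 2 libraries each, with the line of equal levels. The 970 lower genes include S100a8, S100a9, Elane, Ngp and Chi3l3 at the far right, and the 956 higher genes include Slc7a3 and Ccl5 at the upper left.

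The rows of the fusion parts were read first, as a check of the labels. Tcf3 stood at 203 and 171 FPKM in the E2A-HLF libraries and 19.3 and 19.3 in the MLL-AF9 libraries, a difference of 3.24. Hlf stood at 17 and 15.9 against 0.86 and 0.878, a difference of 3.12. Both rows go with the E2A-HLF label, and how much of this came from the introduced fusion was not tested. Mll1 was at 7.72 and 5.84 with E2A-HLF against 6.44 and 6.65 with MLL-AF9. Mllt3 was at 4.06 and 4.33 against 3.26 and 2.67, so neither part of MLL-AF9 was called and these rows do not show the MLL-AF9 label. Prdm16 was at 56.6 and 43.5 with E2A-HLF and 29.5 and 30.1 with MLL-AF9, a difference of 0.72 that was not called. In the stable cells Prdm16 was at 89.1 and 94.6. Ptprc, the CD45 gene of blood cells, was at 60 and 60.7 with E2A-HLF and 51.6 and 51.5 with MLL-AF9. Of 10 stromal genes, 8 were below the level filter in the compared libraries, and so were 12 of 15 B-lymphoid genes, Pax5, Ebf1 and Rag1 among them, and 10 of 16 T and NK genes. The Lin- label concerns the cells at the start: by the time of collection the MLL-AF9 culture held granulocyte, mast cell and eosinophil transcripts at high levels.

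Genes of the neutrophil were lower with E2A-HLF, most of them by far. Neutrophils fill their granules in order: the azurophil granules of the promyelocyte first, then the specific and gelatinase granules. The list of the later stages also holds S100a8 and S100a9, which encode cytosolic proteins. All 19 compared genes of the later stages were lower with E2A-HLF, with a median difference of -6.61, and every member in the tables passed the level filter. Of the 19, 13 were under 1 FPKM in both E2A-HLF libraries and so passed the filter through the MLL-AF9 libraries alone. Such genes had to be lower, so the count is a description. Summed over the list, FPKM ran from 56025 to 57025 in the MLL-AF9 libraries, 9.02% of all FPKM, and from 49.6 to 55.7 with E2A-HLF. RNA from bulk cultures was measured, so fewer cells of a type and less RNA per cell cannot be told apart, here and below.

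S100a8 and S100a9 encode the subunits of calprotectin, the most abundant cytosolic protein of neutrophils. S100a8 stood at 9.99 and 12.9 FPKM with E2A-HLF and at 29619.8 and 28541 with MLL-AF9. S100a9 was at 5.4 and 6.73 with E2A-HLF and at 15489 and 15566 with MLL-AF9. Their differences were -9.99 and -10.36, and -11.20 and -11.11 without quantile normalization, which compresses the very top of the MLL-AF9 libraries. Chi3l3, a chitinase-like protein of myeloid cells, had the lowest difference of all compared genes, -10.86, from 0.714 and 0.96 FPKM with E2A-HLF and 3344 and 3351 with MLL-AF9. Ngp, the neutrophilic granule protein, was at 0.635 and 0.971 against 2094 and 2078. Lcn2, the iron-siderophore binder of specific granules, was at 0.212 and 0.202 against 693 and 683. Camp, the cathelicidin precursor, was at 0.326 and 0.26 against 659 and 669. In each of these 6 genes both MLL-AF9 libraries were above 600 FPKM and neither E2A-HLF library passed 12.9. Stfa2l1 and Stfa2, inhibitors of cysteine proteases, differed by -9.19 and -8.27, but stefin genes are near-identical copies among which reads may be split, so single stefin values are uncertain.

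The stable MLL-AF9 cells held an intermediate level of most of these genes. Chi3l3 was at 53.2 and 56.8 there, Ngp at 215 and 207 and S100a8 at 5153 and 5424. Against them, 18 of 19 later-stage genes were lower with E2A-HLF, with a median of -4.25. Padi4, the arginine deiminase of neutrophil nuclei, was the one not called, at 17.5 and 16.8 with E2A-HLF and 23 and 24.1 in the stable cells.

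In a list of azurophil granule genes and others of the early stage, 8 of 10 were lower, with a median of -2.87, but not evenly. The list also holds the regulators Cebpe and Gfi1, with Ms4a3 and Hdc, and Hdc is in the mast cell list too. Of the 10, 2 passed the filter through the MLL-AF9 libraries alone. Elane, the neutrophil elastase, stood at 2.79 and 3.35 FPKM with E2A-HLF against 2697 and 2655 with MLL-AF9, a difference of -9.49. Prtn3, the protease 3 gene that lies beside Elane, stood at 599.5 and 610.1 against 1643 and 1623, a difference of -1.36. The E2A-HLF cells thus had far more Prtn3 than Elane, while the MLL-AF9 cells had more Elane than Prtn3. Ctsg, cathepsin G, was at 9.58 and 10.5 against 1056 and 1061. Ms4a3, a membrane protein of granulocyte-monocyte progenitors, was at 3.56 and 3.66 against 842 and 828. Mpo, the myeloperoxidase gene, was at 44.3 and 42.2 against 204 and 205. Ctsc, the peptidase that activates these proteases, was not called at 36.9 and 38.7 against 70.7 and 70.2. The one member that was higher was Nkg7, a membrane protein of cytotoxic granules, at 18.4 and 21.8 against 4.51 and 4.91. In the stable cells Elane was at 3028 and 3101 and Mpo at 663 and 646, so with both MLL-AF9 references the E2A-HLF libraries were the low ones.

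Among monocyte and macrophage genes, 12 of 16 were lower and none was higher, with a median of -2.81, and 3 passed the filter through the MLL-AF9 libraries alone. Lyz2, lysozyme, was at 29 and 29.2 FPKM with E2A-HLF and 1794 and 1808 with MLL-AF9. Csf1r, the receptor of M-CSF, was at 0.145 and 0.191 against 11.7 and 12.2. Mpeg1, the pore-forming perforin-2 of macrophages, was at 2.48 and 2.75 against 48.2 and 49.9. Mrc1, the mannose receptor, was at 0.334 and 0.392 against 22.3 and 22.8. Ly6c2, the Ly6C antigen of inflammatory monocytes, was an exception in level: it was at 1600.3 and 1735 against 1195 and 1164 and was not called. Irf8, the transcription factor that directs monocyte fate, was low in both, at 3.2 and 3.4 against 4.9 and 5.52. Compared with the stable cells, 9 of 16 were lower and 1 was higher, with a median of -1.20, and Lyz2 stood at 116 and 116 there.

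Several mast cell and eosinophil genes were high with MLL-AF9+PRDM16mut and near 0 with E2A-HLF+PRDM16mut and in the stable cells with PRDM16mut. In the MLL-AF9 cotransduction with intact PRDM16 they were far lower. Mcpt4 was at 0.24 and 0.169 there, Tpsb2 at 1.55 and 1.74 and Cma1 at 0.725 and 0.625. Prg2 was at 26 and 24 and Epx at 7.01 and 8.63 there. Of 16 compared, 11 were lower with E2A-HLF and 1 was higher, with a median of -3.87. Of the 16, 7 passed the filter through the MLL-AF9 libraries alone and 1 through the E2A-HLF libraries alone, so the count is a description. Mcpt4, a chymase of connective tissue mast cells, was at 0.0582 and 0.0557 FPKM with E2A-HLF and 346 and 347 with MLL-AF9. Tpsb2, a mast cell tryptase, was at 0.0781 and 0.149 against 355 and 341. Cma1, another chymase, was at 1.14 and 1.27 against 506 and 490.5. The eosinophil granule genes Prg2, major basic protein, and Epx, eosinophil peroxidase, showed the same pattern. Prg2 was at 0.668 and 0.511 with E2A-HLF and 654 and 633 with MLL-AF9. Epx was at 0.00897 and 0.0343 with E2A-HLF and 96.4 and 98 with MLL-AF9. In the stable MLL-AF9 cells all 5 were near 0 as well: Mcpt4 at 0.057 and 0.0564, Tpsb2 at 0.0513 and 0.0761, Cma1 at 0.07 and 0.0693, Prg2 at 0.294 and 0.452 and Epx at 0.035 and 0.00866. The E2A-HLF libraries were not without mast cell transcripts. Cpa3, the mast cell carboxypeptidase also made by early progenitors, stood at 80.2 and 84.5 there, against 641 and 654 in the MLL-AF9 cotransduction and 0.135 and 0.344 in the stable cells. Fcer1a, the IgE receptor chain, was at 4.52 and 4.26 against 251 and 250.01, and 0.0608 and 0.0301 in the stable cells. The member that was higher was Il13, at 2.17 and 2.43 against 0.369 and 0.245. Chymase genes of the Mcpt family are close copies, so single values are uncertain. The summed FPKM of the list ran from 4262 to 4351 with MLL-AF9 and from 941 to 1023 with E2A-HLF. In the stable cells it ran from 1472 to 1514, above E2A-HLF, and nearly all of that was Srgn, the granule proteoglycan that other blood cells make too, at 1453 and 1494. Srgn is in the sums of the other cultures too, so the sums do not measure mast cell genes alone. Against the stable cells 4 of 10 compared members were higher with E2A-HLF and 1 was lower. Between the cotransductions the summed level moves with the neutrophil and monocyte lists, and its part in the other differences was not tested.

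**Figure D2:**
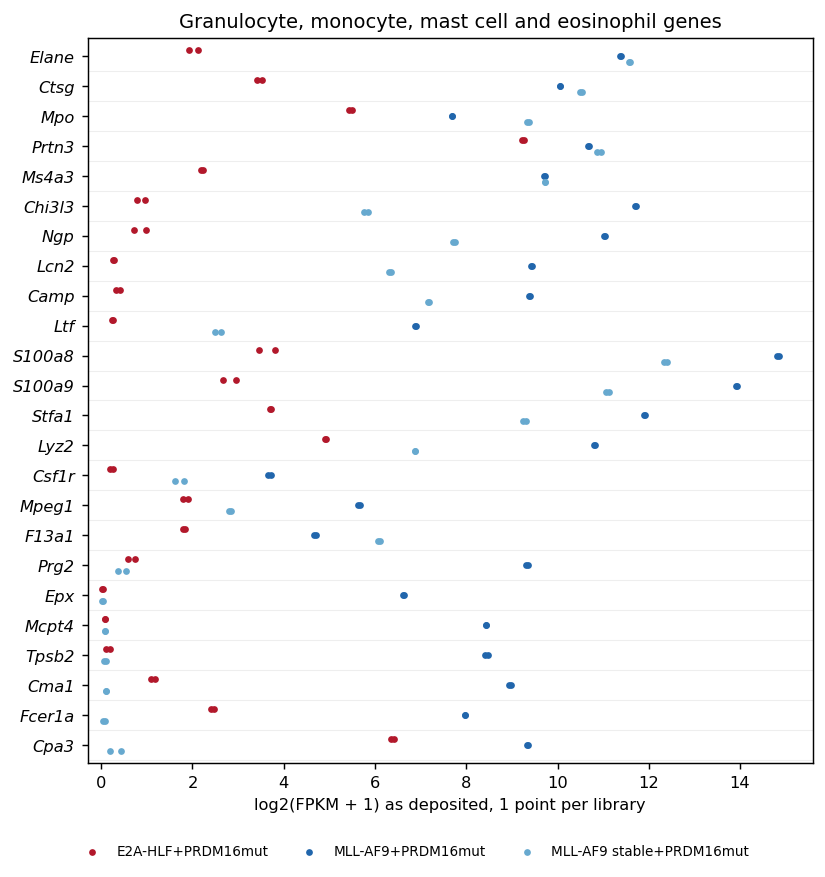
FPKM of 24 granulocyte, monocyte, mast cell and eosinophil genes as log2(FPKM + 1) as deposited, 1 point per library, for E2A-HLF+PRDM16mut, MLL-AF9+PRDM16mut and MLL-AF9 stable+PRDM16mut, with 2 libraries each. Of the groups shown, Elane, Ctsg and Ms4a3 are low with E2A-HLF alone. Prg2, Epx, Mcpt4, Tpsb2 and Cma1 are high with MLL-AF9+PRDM16mut alone.

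Genes of stem and progenitor cells were mostly higher with E2A-HLF, with 10 of 13 higher, 1 lower and a median of 1.76. Of these 13, 5 passed the level filter through the E2A-HLF libraries alone and could only be higher. The list was also drawn up with earlier results of these data known, so the count is a description. Another 5 members were below the filter: Slamf1, Mecom, Tek, Esam and Robo4. Ly6a, the Sca-1 antigen of mouse stem cells, stood at 2493 and 2674 FPKM with E2A-HLF against 182 and 183 with MLL-AF9, a difference of 3.82. Flt3, the receptor kinase of multipotent and lymphoid-primed progenitors, was at 29.1 and 28.8 against 0.0254 and 0. Cd27, a TNF receptor family member of early lymphoid and multipotent progenitors, was at 49.7 and 48.4 against 0.187 and 0.154. Procr, the endothelial protein C receptor that marks stem cells, was at 9.91 and 9.55 against 0.643 and 0.643. Cd34, a sialomucin of progenitors, was at 55.9 and 57 against 20.8 and 21.1. Eltd1, an adhesion receptor of endothelium and stem cells, differed by 4.58. Kit, the receptor of SCF, went the other way at 25.5 and 24.1 against 46.8 and 47.5, a difference of -0.90 that was not called, and Thy1 was lower at 1.54 and 1.74 against 12.7 and 13.5. Mast cells also carry Kit, the mast cell genes above were high in the MLL-AF9 libraries, and their part in the Kit values was not tested. Compared with the stable cells, 11 of 13 were higher and none was lower: Ly6a was at 21.9 and 21.8, Cd34 at 3.62 and 4.4 and Kit at 6.21 and 6.03 there.

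Outside these lists, Slc7a3, a transporter of cationic amino acids, had the highest difference of all compared genes, 7.90. It stood at 284 and 296 FPKM with E2A-HLF against 0.366 and 0.262 with MLL-AF9 and 0.757 and 0.761 in the stable cells. Gkn3, a gastrokine that also marks arterial endothelium, was at 59.1 and 59.3 against 0.185 and 0.114, and 0.0385 and 0.114 in the stable cells. Lrrn3, a leucine-rich repeat neuronal protein, was at 36.8 and 37.5 against 0.0207 and 0.0212. Pls1, an actin-bundling plastin of epithelia, was at 41.4 and 41.9 against 0.197 and 0.202. These 4 were near 0 in both MLL-AF9 cultures. The others among the 12 genes of largest difference were Pcp4l1 at 5.28, Paqr5, a membrane progestin receptor, at 5.36, Slc22a3, an organic cation transporter, at 5.03, and Cnn3, an actin-binding calponin, at 4.62, beside Ccl5, Cd27, Flt3 and Eltd1. Slc22a3 was also present in the stable cells, at 11.7 and 11.8 against 71.9 and 73.7 with E2A-HLF.

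Erythroid and megakaryocyte genes were mixed. Of 11 erythroid genes 3 were higher and none was lower, with a median of -0.14. Car2, carbonic anhydrase 2, was at 147 and 157 against 5.87 and 5.79. The beta-globin copies Hbb-b1 and Hbb-b2 share reads, and their single values change order between replicates, so their sum is given: 671 and 761 with E2A-HLF and 142 and 121 with MLL-AF9. The summed alpha-globin copies Hba-a1 and Hba-a2 went the other way, at 10.2 and 12.4 against 30.2 and 29.1. In the stable cells both sums were under 1 FPKM. Gata1, the erythroid and megakaryocyte regulator that mast cells and eosinophils also use, was at 4.69 and 5.31 against 10.4 and 10.7, and 0.174 and 0.0431 in the stable cells. Of 11 megakaryocyte genes 4 were higher and 3 lower, with a median of 0.25, and 3 passed the filter through each culture alone. Pf4, platelet factor 4, was at 309.9 and 341 against 56 and 53.8. Selp, P-selectin, was at 16.7 and 17.2 against 0.952 and 0.804. The lower ones were Itga2b, the platelet integrin chain, at 11 and 10.7 against 36 and 34.7, with Gp1ba at -2.02 and Vwf at -1.38. Against the stable cells, where Itga2b was at 0.182 and 0.122 and Pf4 at 1.99 and 1.84, 7 of 9 erythroid and 6 of 8 megakaryocyte genes were higher and none was lower. For Itga2b and Gata1 the direction therefore depends on which MLL-AF9 culture is taken.

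Lymphoid and dendritic genes were mostly at the bottom of the range. The 3 B-lymphoid genes that passed the filter were Cd79b, Bank1 and Il7r. Cd79b, a chain of the B-cell receptor, was at 10.2 and 9.88 against 3.08 and 3.56. Bank1, a B-cell adaptor, was at 1.16 and 1.03 against 5.48 and 5.32. Il7r, the IL7 receptor, was at 0.0434 and 0.0415 against 3.86 and 3.83. The B-lineage factors Ebf1 and Pax5 were among the members below the filter. Of 6 compared T and NK genes, Nkg7 was higher and Thy1 and Gzmb were lower. Gzmb, granzyme B, was at 37.7 and 40 against 174 and 168, and 0.292 and 0.162 in the stable cells, so it was lower than in one MLL-AF9 culture and higher than in the other. Of 5 dendritic genes 3 were higher and none was lower, namely Flt3, Bst2 and Tcf4, each of which sits in another list too. Among stromal genes only Acta2 and Vcam1 passed the filter, and Acta2, smooth muscle actin, was lower by the rule at 0.0305 and 0.0583 against 3.18 and 3.29.

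The Hoxa cluster, the best known target of MLL fusions, was lower or level with E2A-HLF. All 7 compared members had a negative difference and 3 were called lower, with a median of -1.19, and Hoxa2, Hoxa4 and Hoxa13 were among those below the filter. Hoxa10 stood at 2.1 and 2.19 FPKM with E2A-HLF against 23.8 and 22.7 with MLL-AF9, a difference of -3.03. Hoxa11 was at 0.023 and 0.0439 against 4.04 and 3.78, and it passed the filter through the MLL-AF9 libraries alone. Hoxa6 was at 1.81 and 1.55 against 4.97 and 5.42. Hoxa9, the member most tied to leukaemia, was at 18.8 and 17.8 against 30.4 and 30, a difference of -0.71 that was not called. Hoxa5 at -1.19, Hoxa3 at -0.79 and Hoxa7 at -0.31 were not called either. The gap was wider against the stable cells, where Hoxa9 was at 81.1 and 83, Hoxa10 at 78.2 and 79.8 and Hoxa11 at 51.9 and 52.9, and where 9 of 10 compared members were lower with E2A-HLF.

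Other genes known as MLL fusion targets did not move as one. Of 15 compared, 6 were higher with E2A-HLF and 1 was lower, with a median of 0.73. Of the 15, 2 passed the filter through the E2A-HLF libraries alone and 1 through the MLL-AF9 libraries alone. Meis1, the homeodomain partner of Hoxa9, was at 13.2 and 12.9 against 4.79 and 4.4, higher with E2A-HLF, but at 15.9 and 15.7 in the stable cells. Mef2c, a MADS-box factor of myeloid leukaemia and lymphoid progenitors, was at 13 and 13.1 against 3.19 and 3.16. Satb1, a chromatin organizer of lymphoid progenitors, was at 7.38 and 7.16 against 0.0517 and 0.0327. Tcf4, another E protein, was at 13.2 and 13.2 against 1.43 and 1.4. Flt3 and Bcl2 were the other higher members. With the stable cells as reference, the counts were 4 higher and 5 lower, and the median turned to -0.28.

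Genes linked to E2A-HLF in earlier work on the fusion were higher in 4 of the 4 compared, with a median of 1.5. Tle2, 1 of the 4, passed the filter through the E2A-HLF libraries alone and could only be higher. Lmo2, the LIM adaptor that bridges SCL and GATA factors, stood at 682 and 717 FPKM against 102 and 98.6 with MLL-AF9 and 165 and 162 in the stable cells. Bcl2, the founding survival gene of its family, was at 8.55 and 8.82 against 1.96 and 2, and 0.806 and 0.911 in the stable cells. Tle6, a Groucho-type corepressor, was at 10.1 and 10.1 against 2.4 and 3.15. Its relative Tle2 was at 2.07 and 1.53 against 0.0742 and 0.0712. Against the stable cells 2 of the 4 were higher, Lmo2 and Bcl2, while Tle6 at 8.75 and 8.61 and Tle2 at 0.133 and 0.222 there were not called. Snai2 and Anxa8 were below the filter in these libraries.

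Among the PAR bZIP and clock genes, whose members share the DNA site of HLF or its rhythm, 2 of 14 were higher and 1 was lower. Over all compared genes 8.9% were higher and 9.03% lower, so these counts are near the share of all genes. Hlf passed the filter through the E2A-HLF libraries alone and Per2 through the MLL-AF9 libraries alone. The higher ones were Hlf itself and Bhlhe40, a clock repressor, at 106 and 107 against 47.3 and 46.4. Per2 was lower at 0.32 and 0.394 against 1.74 and 1.73. Of the E proteins and their Id inhibitors, Tcf3 and Tcf4 were higher, and Id2 and Id1, which bind E proteins and keep them off DNA, were lower. Id2 stood at 11.4 and 14.5 against 109 and 112, but at 8 and 9.13 in the stable cells, below the E2A-HLF level. Id1 was at 30.9 and 29.7 against 110.0 and 103.

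HLF and its relatives bind the palindrome TTACGTAA, and a common variant is TTATGTAA, read on the other strand as TTACATAA. Both were searched on both strands in RefSeq promoter windows of 250 bases before to 50 bases after the gene start (GRCm38.p6), which were at hand for 8668 of the compared genes. To show what such a window looks like, the 4 below are the genes with the highest and the lowest difference among called genes that hold each spelling, with the site in capitals and each sequence written 5′ to 3′ in the direction of the gene. Ak4, a mitochondrial adenylate kinase, lies on the plus strand at chr4:101419039-101419338, and Ankrd9, an ankyrin repeat protein, on the minus strand at chr12:110978569-110978868. Gkn3 lies on the minus strand at chr6:87388886-87389185, and Chi3l1, a chitinase-like glycoprotein of neutrophil granules, on the plus strand at chr1:134181906-134182205.
Ak4: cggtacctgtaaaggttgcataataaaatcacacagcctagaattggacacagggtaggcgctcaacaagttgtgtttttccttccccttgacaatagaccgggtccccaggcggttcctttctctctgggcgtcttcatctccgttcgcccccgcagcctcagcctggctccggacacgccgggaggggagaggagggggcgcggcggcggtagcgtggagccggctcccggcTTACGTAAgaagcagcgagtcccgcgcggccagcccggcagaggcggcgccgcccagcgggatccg
Ankrd9: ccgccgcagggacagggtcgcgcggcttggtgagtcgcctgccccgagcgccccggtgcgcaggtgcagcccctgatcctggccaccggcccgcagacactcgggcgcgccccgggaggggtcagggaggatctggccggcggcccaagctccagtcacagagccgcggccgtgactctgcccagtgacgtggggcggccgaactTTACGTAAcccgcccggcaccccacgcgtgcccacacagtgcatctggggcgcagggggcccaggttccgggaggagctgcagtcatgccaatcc
Gkn3: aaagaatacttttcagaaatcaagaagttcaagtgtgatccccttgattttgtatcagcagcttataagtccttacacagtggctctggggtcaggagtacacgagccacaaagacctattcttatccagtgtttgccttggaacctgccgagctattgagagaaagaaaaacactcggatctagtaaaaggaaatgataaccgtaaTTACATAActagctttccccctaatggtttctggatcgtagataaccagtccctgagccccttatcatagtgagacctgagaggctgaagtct
Chi3l1: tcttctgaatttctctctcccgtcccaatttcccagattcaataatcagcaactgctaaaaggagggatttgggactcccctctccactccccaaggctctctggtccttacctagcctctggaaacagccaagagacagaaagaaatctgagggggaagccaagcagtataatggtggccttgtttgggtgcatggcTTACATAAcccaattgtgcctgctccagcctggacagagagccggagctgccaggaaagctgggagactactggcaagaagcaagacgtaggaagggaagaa
The first base of the site lies 16 bases before the start in Ak4, 45 in Ankrd9, 43 in Gkn3 and 52 in Chi3l1. Ak4 was at 22.5 and 22.9 FPKM with E2A-HLF against 4.38 and 4.51. Ankrd9 was at 1.16 and 1.28 against 4.9 and 4.44. Chi3l1 was at 0 and 0.0684 against 57.3 and 54.5. These 4 genes were chosen by their differences, and a match is a run of letters and not a binding site. TTACGTAA was in a window of 2 of 744 higher genes, 1 of 766 lower genes and 19 of all 8668 compared genes (0.219%). Of the 32851 single windows of the whole table, 0.119% held it. A gene was counted if any of its windows held the site, so shares of genes and of windows are unlike measures. TTATGTAA was in a window of 9 of the 744 higher genes (1.21%), 13 of the 766 lower (1.7%) and 0.573% of the genes not called. It was in 0.938% of the single windows. The counts among higher and lower genes are too small to order for either spelling.

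Of the 25 compared regulators of blood lineages, 5 were higher and 6 lower, with a median of -0.19. Over all compared genes 8.9% were higher and 9.03% lower. The C/EBP factors of granulocyte maturation were the lowest. Cebpe, which drives the step to specific granules, stood at 0.438 and 0.437 FPKM against 106 and 105. Cebpb, the factor of emergency granulopoiesis, was at 7.05 and 9.65 against 108 and 98.7. Cebpd was at 3.18 and 2.63 against 40.8 and 38.8. Cebpa, which commits progenitors to the myeloid line, was not called, at 14.8 and 15.9 against 18.3 and 16.2. Sfpi1, the PU.1 gene, was at 104 and 105 against 230.0 and 222, a difference of -1.02 that missed the rule. Sfpi1 was called lower without normalization, at -1.11, and with median-of-ratios scaling, at -1.25. Gfi1, a repressor needed for neutrophils, was lower at 35 and 35.8 against 88.6 and 88.8, and the Ets factor Fli1 was lower at 10.5 and 11.4 against 32.7 and 33.3. Ikzf2 was lower at 1.17 and 1.43 against 3.5 and 3.51.

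The higher regulators were factors of stem cells, growth and the erythroid line. Erg, an Ets factor of stem cells, stood at 48.8 and 44.4 against 3.62 and 3.85, and 8.08 and 8.73 in the stable cells. Mycn, the Myc relative of stem cells and embryonic tissues, was at 31.6 and 31.6 against 3.34 and 3.15, and 0.0472 and 0.0373 in the stable cells. Myc was at 161 and 163 against 76.7 and 76.6. Zfpm1, the Gata1 cofactor FOG1, was at 17.9 and 18.8 against 4.53 and 4.53, and Lmo2 was given above. Most others were not called. Gata2, a stem cell and mast cell factor, was at 53.4 and 52.8 against 31.1 and 31.5. Tal1, the SCL factor of stem cells, was at 11.1 and 10.9 against 9.76 and 9.31. Gfi1b, the erythroid and megakaryocyte relative of Gfi1, was at 5.87 and 5.95 against 3.91 and 3.88. Lyl1, the relative of Tal1, was at 75.7 and 79.6 against 95.2 and 93.2. Runx1 differed by -0.70, Runx2 by 0.73, Runx3 by 0.66, Myb by 0.64, Ikzf1 by 0.14, Irf8 by -0.67, Mitf by -1.05 and Gata1 by -1.05. Tal1, Gata2 and Gfi1b, which the cotransductions shared, were at 0.00609 and 0.0301, 1.11 and 1.07 and 0.404 and 0.318 in the stable cells. Gata3, Irf4, Ikzf3, Klf4 and Mecom were below the filter.

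**Figure D3:**
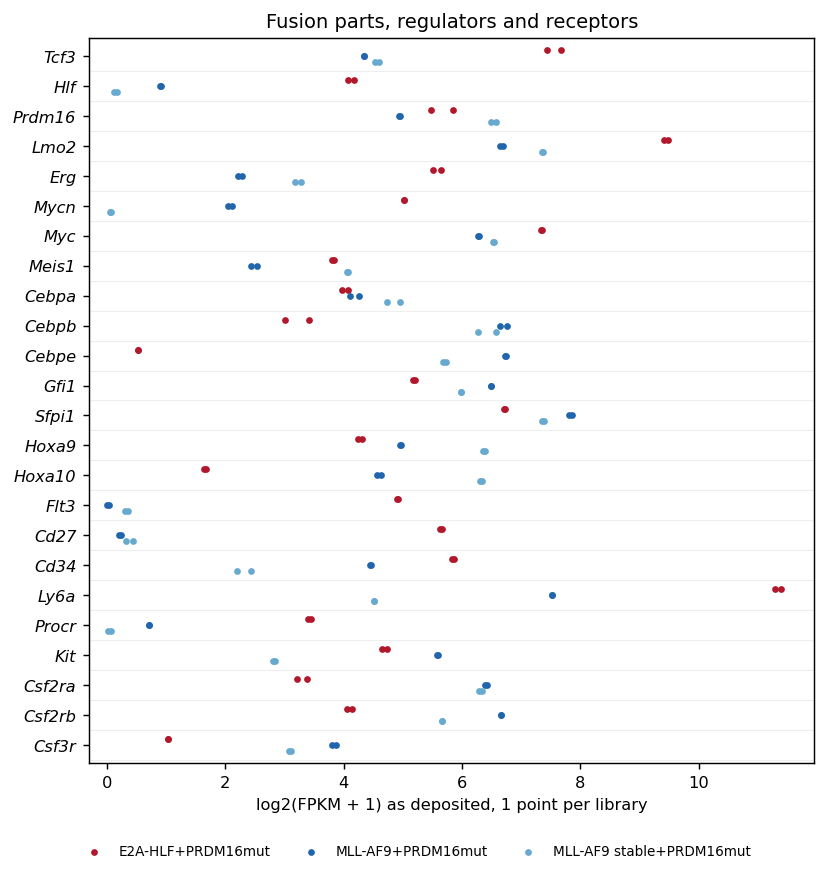
FPKM of 24 fusion parts, transcription factors and surface receptors as log2(FPKM + 1) as deposited, 1 point per library, for E2A-HLF+PRDM16mut, MLL-AF9+PRDM16mut and MLL-AF9 stable+PRDM16mut, with 2 libraries each. Tcf3, Hlf, Lmo2, Erg, Mycn, Flt3 and Ly6a are highest with E2A-HLF, and Cebpb, Cebpe, Csf2ra and Csf3r are lowest there.

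Receptors of myeloid growth factors were lower in 9 of 17, with 2 higher and a median of -1.29, and 2 passed the filter through each culture alone. Csf3r, the G-CSF receptor, stood at 1.06 and 1.06 FPKM against 13 and 13.6. Csf2ra, the alpha chain of the GM-CSF receptor, was at 9.39 and 8.23 against 85 and 83, and its common beta chain Csf2rb at 16.6 and 15.8 against 99.8 and 99.6. Csf2rb2, the mouse beta chain for IL3, was at 6.74 and 6.49 against 75.9 and 77. Il3ra, the alpha chain for the IL3 in the medium, was not called at 12 and 10.8 against 12.7 and 11.7. Il6ra, the IL6 receptor, was at 2.27 and 2.09 against 6 and 6. Flt3 was among the higher ones. Csf2rb and Csf2rb2 are near-identical copies, so their split is uncertain. With the stable cells as reference, 5 of 16 were higher and 5 lower.

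Interferon response genes were higher in 13 of 27 with none lower, with a median of 0.97. Of the 27, 4 passed the filter through the E2A-HLF libraries alone, Rsad2 among them, and could only be higher. Rsad2, viperin, stood at 15.1 and 15.3 FPKM against 0.951 and 0.781. Isg15, a ubiquitin-like modifier, was at 38 and 42.2 against 6.93 and 5.35. Oasl2, of the oligoadenylate synthetase family, was at 19.5 and 20.7 against 2.42 and 2.26. Ifi47, an interferon-inducible GTPase, was at 43.7 and 48.9 against 7.75 and 7.88. Rtp4 was at 24.3 and 26.8 against 4.13 and 4.8. Irf7, the interferon regulator itself induced by interferon, was at 20.9 and 20.2 against 5.31 and 4.87. Against the stable cells 19 of 27 were higher and none was lower, with Rtp4 at 0.167 and 0.181 and Isg15 at 2.57 and 1.52 there. Of 9 MHC class II genes 3 were higher and none was lower. The higher ones were the peptide-loading genes H2-Oa, H2-Ob and H2-DMa, at 1.04, 1.74 and 1.66. The call of H2-Oa lies at the threshold and is lost without replicate 1 of MLL-AF9 and with median-of-ratios scaling. The classical chain H2-Aa was at 8.69 and 10.5 against 8.35 and 8.63, and the invariant chain Cd74 at 18.8 and 21.3 against 28.9 and 30.1, neither of them called.

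Chemokines and inflammatory genes split, with 4 of 12 higher and 5 lower. Of the 12, 4 passed the filter through the MLL-AF9 libraries alone, Ccl2, Ccl7 and Saa3 among them, and 1 through the E2A-HLF libraries alone. Ccl5, the chemokine RANTES, stood at 174 and 189.5 FPKM with E2A-HLF against 1.04 and 0.995, and 0.648 and 0.641 in the stable cells. Ccl3, the macrophage inflammatory protein 1 alpha, was at 61.4 and 62.6 against 5.16 and 5.63. Ptgs2 and Ccl4 were the other higher ones, at 1.21 and 1.54. Ccl3 and Ccl4 were not called against the stable cells, where Ccl3 was at 40.5 and 39.8. On the lower side, the monocyte attractant Ccl2 was at 0.402 and 0.23 against 57 and 56.8. Its relative Ccl7 was at 0 and 0 against 28.7 and 27. Saa3, an acute-phase protein, was at 0.13 and 0.248 against 48.9 and 47.6. Ccl6 was at 23.7 and 26.1 against 271 and 261, and Il6 at -1.96 was the fifth. The genes Il1a, Il1b, Cxcl1 and Cxcl2 were below the filter.

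Adhesion genes also split, 5 of 20 higher and 5 lower. Jam3, Itgb3 and Selp, which are 3 of the 5 higher ones, passed the filter through the E2A-HLF libraries alone. Itgam, the CD11b chain of the main myeloid integrin, stood at 2.81 and 2.7 FPKM with E2A-HLF against 119 and 119 with MLL-AF9. Itgb2, its CD18 partner, was at 17.5 and 17.8 against 146 and 144. Itgal and Itgb7 were lower by -1.98 and -1.5, with Itga2b as the other. Jam3, a junction molecule of stem cells and endothelium, was higher at 16.8 and 15.3 against 0.306 and 0.277. Itgb3, the platelet and mast cell integrin chain, was at 14.2 and 13.9 against 0.849 and 0.812. Pecam1 and Itga6 differed by 1.40 and 1.49, and Selp was given above.

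**Figure D4:**
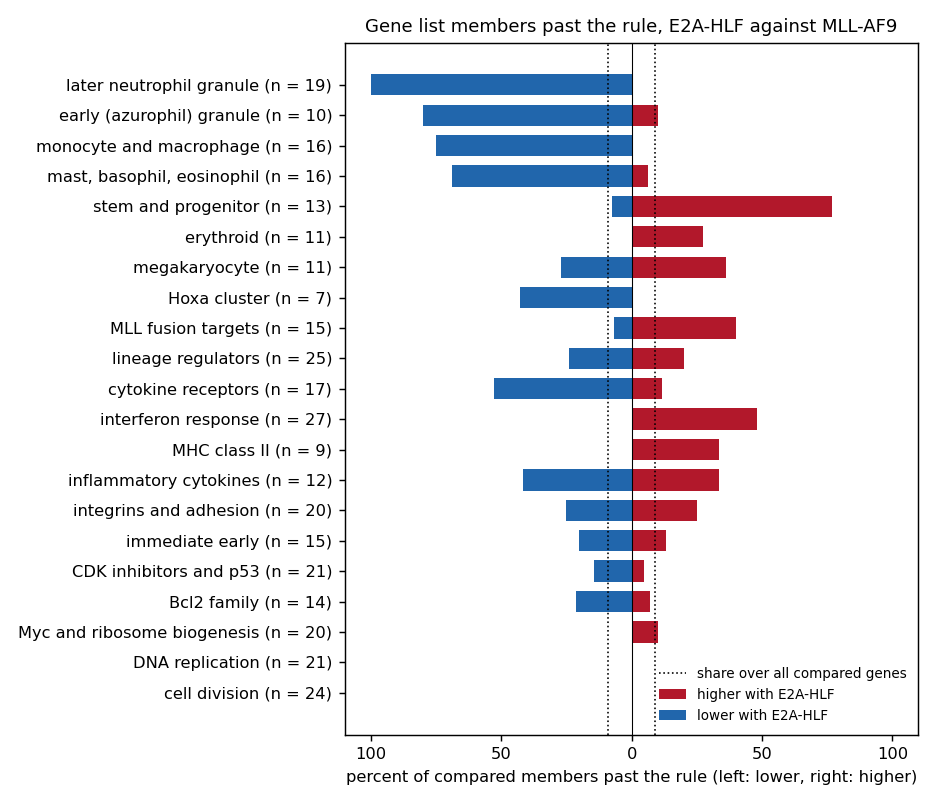
Percent of the compared members of 21 gene lists that were called higher (right) or lower (left) with E2A-HLF+PRDM16mut against MLL-AF9+PRDM16mut, with n the number compared and dotted lines at the shares over all compared genes, 8.9% higher and 9.03% lower. All 19 later neutrophil genes and 8 of 10 genes of the azurophil list are on the lower side, 10 of 13 stem and progenitor genes on the higher side. No cell division or DNA replication gene is called.

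No gene of the cell cycle lists passed the rule. None of 24 cell division genes and none of 21 DNA replication genes was called in either direction, with medians of -0.17 and 0.19 beside 0.077 for all genes. The differences ran from -0.78 to 0.45 in the first list and from -0.76 to 0.76 in the second. Mki67, the Ki-67 antigen of cycling cells, was at 34.9 and 30.4 FPKM with E2A-HLF against 48.7 and 50.7 with MLL-AF9. Pcna, the replication clamp, was at 386 and 410.0 against 304 and 299. Libraries of the cultures did not overlap for either gene, yet the differences were under the rule.

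Of 21 genes of the CDK inhibitors and the p53 response, 1 was higher and 3 were lower. Over all compared genes 8.9% were higher and 9.03% lower, so together these calls are near the share of all genes. Cdkn1c, a CDK inhibitor of quiescent stem cells, was higher at 8.75 and 8.67 against 2.72 and 3.2. Fas, the death receptor, was lower at 0.989 and 0.72 against 6.2 and 6.52, with Btg2 at -1.42 and Perp at -1.31. Cdkn1a, the CDK inhibitor that p53 induces, was nearly equal at 104 and 107 against 108 and 108. So was Cdkn2a, the INK4A and ARF locus, at 32.6 and 35.7 against 32.3 and 33.8. Of 14 Bcl2 family genes, Bcl2 was higher and 3 were lower, beside the same shares over all genes. The lower ones were the prosurvival copies Bcl2a1a and Bcl2a1b, at -3.75 and -2.49, and the killer Bmf at -1.02. The Bcl2a1 genes are near-identical copies that myeloid cells express, so their single values are uncertain. The Bmf call is lost under 2 of the other scalings.

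Beside the 8.9% higher over all compared genes, Myc targets of ribosome biogenesis had a median of 0.45, with 2 of 20 higher and none lower. These were Myc and Rrp1b, at 1.10 and 1.06, and both calls are lost with median-of-ratios scaling. The Rrp1b call is also lost without replicate 2 of MLL-AF9. Of the 4 compared oncofetal genes, Lin28b, the repressor of let-7 microRNAs, stood at 4.88 and 5.13 against 0.145 and 0.139. Hmga2, a chromatin protein that let-7 represses, was at 3.75 and 4.15 against 0.242 and 0.196. Lin28a, the close relative of Lin28b, was lower at 0.148 and 0.156 against 5.07 and 4.72. In the stable cells Lin28b was at 4.98 and 4.87, level with E2A-HLF, and Lin28a at 17.2 and 16.8. Of 15 immediate early genes 2 were higher, Nr4a1 at 1.47 and Dusp1 at 1.24. Another 3 were lower, namely Jun at -1.51, Fos at -1.13 and Btg2. Over all compared genes 8.9% were higher and 9.03% lower, so calls this few say little about the list.

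Housekeeping and Y-linked genes were read as controls. Of 15 housekeeping genes 1 was called, with a median of 0.34 and a range from -0.92 to 1.36. The called gene was Eef1a1, the translation elongation factor, at 4995 and 5093 FPKM against 3553 and 3636. Its difference was 1.36 after quantile normalization and 0.49 without it, so the call was made only after the normalization. The same held outside the list for Rplp1, named here because normalization moved it. Rplp1 was at 5057 and 5295 against 5490 and 5225, called higher at 1.44 after normalization and at -0.0497 without it. The Y-linked gene Eif2s3y was higher at 44.9 and 47.4 against 5.05 and 5.07, and Ddx3y was not called at 24.8 and 24.7 against 14.4 and 13.9. In the stable cells Eif2s3y and Ddx3y were at 0.0509 and 0.0336 and 0.0201 and 0.0199, so the stable cells were near 0 for both Y-linked genes while the cotransductions were not. Of 6 sex-linked genes compared with the stable cells, 4 were higher with E2A-HLF and 2 were lower. Between the cotransductions 2 of the list were below the filter, at no more than 0.0497 FPKM.

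The list medians against each MLL-AF9 culture show which groups depend on the reference. The neutrophil, azurophil, monocyte and Hoxa medians were negative against both, and the stem and progenitor and interferon medians positive against both. The mast cell median went from -3.87 to 0.83 over fewer genes, the erythroid median from -0.14 to 2.24 and the MLL target median from 0.73 to -0.28. The median of the few oncofetal genes went from 1.16 to -0.998. Medians closer to 0 also changed sign: the CDK inhibitor and p53 list from -0.12 to 0.48, Myc targets from 0.45 to -0.013 and DNA replication from 0.19 to -0.23. The immediate early, inflammatory, adhesion and housekeeping medians changed sign too, none of them beyond 0.34 in size.

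**Figure D5:**
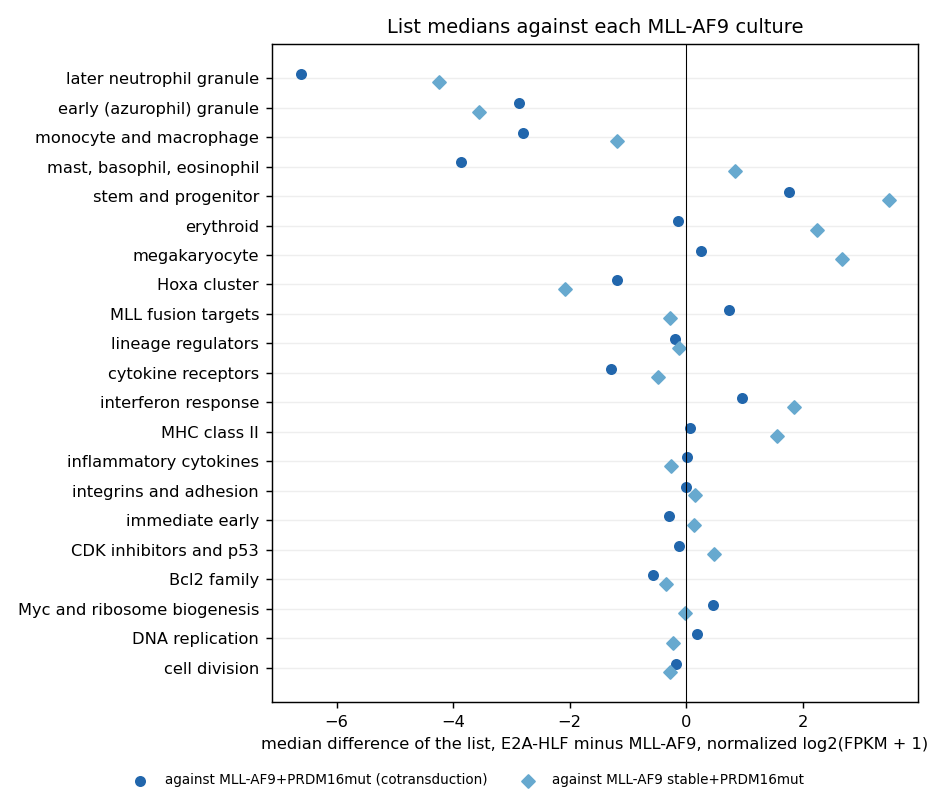
Median difference of each of 21 gene lists, E2A-HLF minus MLL-AF9 on normalized log2(FPKM + 1), against MLL-AF9+PRDM16mut (circles) and against MLL-AF9 stable+PRDM16mut (diamonds), 2 libraries per culture and the same E2A-HLF libraries in both. The later neutrophil median lies at -6.61 and -4.25, while the mast cell, erythroid and MLL target medians change sign, as do 6 that lie nearer 0.

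The same genes can be read in the cultures with intact PRDM16, which are separate libraries of the same 2 tables. There the order of the fusions was the opposite for several genes above. Elane was at 56.6 and 56 FPKM with E2A-HLF and 13.1 and 14.3 with MLL-AF9, Ctsg at 241 and 233 against 67 and 67 and Cebpe at 17.6 and 17.2 against 6.46 and 7.11. Hoxa9 was also higher with E2A-HLF there, at 5.76 and 5.69 against 0.104 and 0.0957. The interferon genes Rsad2, at 2.18 and 2.42 against 8.72 and 8.56, Isg15, at 5.32 and 4.83 against 16.2 and 16.5, Oasl2, at 0.629 and 0.896 against 9.64 and 10, and Rtp4, at 0.83 and 1.08 against 8.97 and 8.2, were lower with E2A-HLF. The later neutrophil genes did not move as one there, and the gaps were far smaller. Chi3l3 kept its order, at 0.948 and 1.18 against 2.63 and 2.64, as did Ngp, Lcn2, Camp and S100a8. S100a8 was at 290 and 287 against 503 and 402. S100a9 overlapped, at 190 and 171 against 181 and 167. Stfa2l1 went the opposite way, at 27.4 and 25.4 against 6.44 and 2.43, and so did Stfa2. Lmo2 kept its order at 595 and 549 against 41.2 and 37.6, and Slc7a3 at 307 and 291 against 0.268 and 0.113. These genes were chosen after their values were seen.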

How the data were processed

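RNA-seq was made of oligo(dT)-primed RNA from cultured mouse bone marrow cells. The authors deposited FPKM per gene symbol, 1 table per experiment, and the submitters' processing notes name the mm9 build, Cuffdiff without a version, TopHat2 2.0.3 and Bowtie2 2.0.0.7. The gene annotation, not given in the sources used here, differed between tables: there were 23309 entries for the MLL-AF9 cotransduction and 23235 in each of the other tables. Reads are not in the tables, so depth is unknown beyond steps of low values, which put replicate 2 at 1.05 times the depth of replicate 1 for E2A-HLF and at 0.972 times for MLL-AF9, with 77.9% and 73.8% of ratios whole-number ratios within 0.5%.

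The E2A-HLF and MLL-AF9 tables were joined on 22362 symbols present once in both, 732 rows of Rn45s and small RNAs were left out, and 10737 genes reaching an FPKM of 1 in 2 or more of the 4 libraries were compared on log2(FPKM + 1), quantile-normalized over the 4 (Python 3.11.15, pandas 2.3.3, numpy 2.4.6). Tables were quantified in separate runs, so no test was made: a gene was called where the smallest of the 4 library-to-library differences was at least 1. The call was checked on simulated libraries drawn from the levels and replicate spread of MLL-AF9+PRDM16mut, with known shifts added. No difference between runs was simulated, so the check cannot speak to the separate runs. The members, the 32 gene lists and the naming rule were chosen with earlier results of these data known. Named genes are the fusion parts and Prdm16, the 12 called genes of largest and of smallest difference, up to 5 called members of each list by size of difference, and compared Hoxa genes and lineage regulators. Further list members, the promoters and the pathway examples in the text were chosen after their values were seen. Symbols that a spreadsheet had turned into dates, 25 and 27 in the tables joined, were compared but not named, and some list members are not reported here. Coordinates other than those of the RefSeq promoter windows are left out, as the annotation used here is not of mm9.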

Additional observations from a re-analysis of the deposited data

How the results depend on the processing

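No paired analysis was possible because the result comes from no test, and the replicate numbers of the groups belong to separate runs. The counts of 956 higher and 970 lower genes stayed within 1.5 times under other scalings, pseudocounts and filters on low values. With a smallest difference of 2 they were 235 and 421, by the construction of the rule. With both MLL-AF9 groups together, an alternative added after seeing the data, they were 632 and 555. Leaving out each library in turn gave 1007 to 1017 higher and 998 to 1021 lower genes, since fewer library pairs must pass. Under another scaling no called gene named by the naming rule changed direction. Rplp1, named outside it, went from 1.44 to -0.0497 without normalization and lost its call. The uncalled Mll1 went from -0.077 to 0.033 without normalization and Ikzf1 from 0.14 to -0.0069 with median-of-ratios scaling. Sfpi1 was called lower under both of these, and Hoxa5 (-1.24) with normalization over all libraries of the series. Calls were lost for Per2, Ikzf2, Bmf, Fos and Eef1a1 without normalization and for Ikzf2, Myc, Hbb-b1, Bst2, H2-Oa, Bmf, Rrp1b and Eef1a1 with median-of-ratios scaling. With MLL-AF9 stable+PRDM16mut as the comparison the difference changed sign for Id2 (0.48), Ikzf2 (1.0), Cma1 (0.82), Itga2b (3.17), Thy1 (0.34) and Gzmb (4.88). The sign also changed for H2-DMa (-0.15), Perp (2.67), Lin28b (-0.13), Nr4a1 (-0.061), Fos (0.13) and Ccl6 (0.17). Among uncalled genes the difference changed sign for Gata1 (2.24), Prdm16 (-0.79), Runx2 (-0.76) and Myb (-0.12). With both groups together it did so for Itga2b (0.67), Gzmb (1.32) and Perp (0.59), and for Gata1 (0.52), Prdm16 (-0.030) and Runx2 (-0.010). Without replicate 2 of E2A-HLF the difference of Mll1 was 0.097. The cause was not tested. Low values near 0 FPKM are limited by a depth that is unknown.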

Other observations

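Genes called in the same direction also lay near each other on the chromosomes. In the gene order of RefSeq (assembly GRCm38, used only for which genes are neighbours), called genes were read in order and uncalled genes passed over. There were 12 runs of at least 5 called genes in a row that went one way, 6 of them lower and 6 higher. Starts of successive members lay less than 200 kb apart, and genes that were not called may lie between them. These runs and the genes named from them were chosen after their values were seen, and how often chance would give such runs was not tested. The lower runs were mostly gene families of myeloid cells. Fstl3, Prss57, Prtn3, Elane, Arid3a and Cnn2 formed one, in which Cnn2, an actin-binding calponin, was at 25.2 and 24.6 FPKM with E2A-HLF against 155 and 155 with MLL-AF9. The Trem receptors formed another, with Trem3 at 0.09 and 0.086 against 50.7 and 49.9 and Trem2, a lipid receptor of macrophages, at 0.138 and 0.0883 against 23.6 and 21.7. A run of C-type lectin receptors included Clec4n, the dectin-2 gene, at 2.67 and 2.79 against 93 and 95 and Clec4d at 1.15 and 0.939 against 28.9 and 29.7, with the complement receptor C3ar1 at 0.299 and 0.286 against 15.1 and 15. The coagulation factor genes F7 and F10 lay in a run, at 0.257 and 0.155 against 78.1 and 78.3 and at 0.281 and 0.286 against 115 and 114. The other lower runs were the stefin cluster and the cluster of Cma1, Mcpt genes, Ctsg and Gzmb.

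The higher runs were of other kinds. The X-linked Armcx genes, which encode armadillo repeat proteins of mitochondria, formed one of them. Armcx2 was at 37.6 and 37 FPKM with E2A-HLF against 0.787 and 0.886 with MLL-AF9, and Armcx6 at 27.3 and 27 against 0.65 and 0.691. The GTPases of lymphocyte survival Gimap6 and Gimap1 lay with Tmem176b and Tmem176a. Gimap6 was at 26.2 and 26 against 2.55 and 2.28, and Tmem176b, an ion channel protein of antigen-presenting cells, at 207 and 213 against 23.1 and 22.7. A run in the MHC region joined H2-Oa, H2-DMa and H2-Ob with the immunoproteasome and peptide transport genes: Psmb8 was at 169.9 and 177 against 67.2 and 64.8, Psmb9 at 119.6 and 127 against 45.1 and 43.4 and Tap1 at 33.8 and 32.1 against 12.6 and 12.3. Trim6, Trim34a, Trim30b and Trim30a, of the antiviral TRIM family, formed another, with Trim6 at 19.8 and 19.4 against 2.45 and 2.27. The kinase gene Jak3, which signals for the common gamma chain receptors, lay in a run with Bst2 and was at 36.3 and 33.3 against 8.23 and 8.37.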
